A study of Saccharomyces cerevisiae with 6 samples.

Results

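The genes described here take up and use nitrogen sources in the budding yeast Saccharomyces cerevisiae. They were chosen by symbol from pathway knowledge, with earlier results of these data known. The list comprises 30 genes for allantoin, urea, proline, ammonium, amino acid, peptide and arginine use and for glutamate and glutamine metabolism. Of these, 29 were matched to a probe set and all 29 were tested, out of 5402 genes tested and 5449 measured on the array. The remaining gene, DUR1,2, which encodes urea amidolyase, is unlisted in the probe annotation used here.

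The study compared 3 arrays of a strain deleted for RPH1 (rph1) with 3 arrays of wild type (WT), both in the W303 background and both grown at 30 °C in rich YPD medium to log phase. RPH1 encodes a JmjC-domain histone demethylase with zinc fingers, and the stated aim was to find the genes it regulates. The series calls the samples biological, and the arrays are numbered 1 to 3 in each genotype, but nothing in the sources says whether same-numbered cultures were grown together. The labels do not say how many independent deletion clones were used.

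Yeast uses preferred nitrogen sources such as glutamine and ammonium first. Permeases and enzymes for poorer sources are held down by nitrogen catabolite repression, in which the GATA factors Gln3 and Gat1 activate and Dal80 and Gzf3 repress. Amino acids outside the cell are sensed separately and induce a further group of permeases. Pathway-specific activators respond to the source itself, as Put3 does to proline and Dal81 and Dal82 do to allantoin and urea breakdown products. Rich medium supplies amino acids and peptides in plenty.

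Values are signal intensities on a linear scale, and differences are on the log2 scale with standard errors (SE) from limma, a linear model fitted over all tested genes. RPH1 itself read 4.52, 8.18 and 8.99 on rph1 arrays 1, 2 and 3, against 305, 362 and 385 on the same-numbered WT arrays. The array medians over tested genes ranged from 598.8 to 628.1. The replicate 1 arrays stood apart from the others in both genotypes: the labels give them another form of sample code, and a probe set for the bacterial control RNA dap read 2.02 and 0.0960 on the rph1 and WT arrays of replicate 1, against 42.7 to 55.0 on the other 4 arrays. This split is called the batch below, and each batch holds both genotypes. Every member read above background on all arrays, with signals from 55.2 to 5956 against a background of 8.59 to 12.7. Signals of different genes come from different probes and are not compared with each other.

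No nitrogen source gene passed the test between rph1 and WT. At a limma adjusted p under 0.05, 0 of 29 members were called, where 0.037% of all tested genes were, and the members' adjusted p ran from 0.693 to 1.00. The members were higher in 17 cases and lower in 12, with a median log2 difference of 0.01, against 0.0012 over all tested genes. Single differences lay between -0.39 for OPT2 and 0.33 for DIP5. At an unadjusted p under 0.05 there was 1 member, 3.45% of the list, where 5.33% of all tested genes met that rule. It was DIP5, among the higher genes, which were 4.33% of all tested. Without the rph1 array of replicate 1 the members' median became 0.10 and the unadjusted count 3.

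By replicate number the median over members was -0.0005 in pair 1, 0.04 in pair 2 and 0.09 in pair 3, with 14, 18 and 20 of the 29 higher in rph1. Over all tested genes the 3 medians were 0.02, 0.01 and -0.00028, with 2900, 2847 and 2699 of the 5402 higher. The sign was the same in all pairs for 10 of 29 members (34.5%), where 34.6% of all tested genes did. Of these 10, DAL7, PUT4, MEP3, GAP1, DIP5, CAR2 and GDH3 were higher in every pair (7 genes, 24.1%, against 19.9% of all tested genes). PUT1, PTR2 and OPT2 were lower in every pair (10.3%, against 14.7%), PTR2 by only -0.0005 in pair 1.

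**Figure D1:**
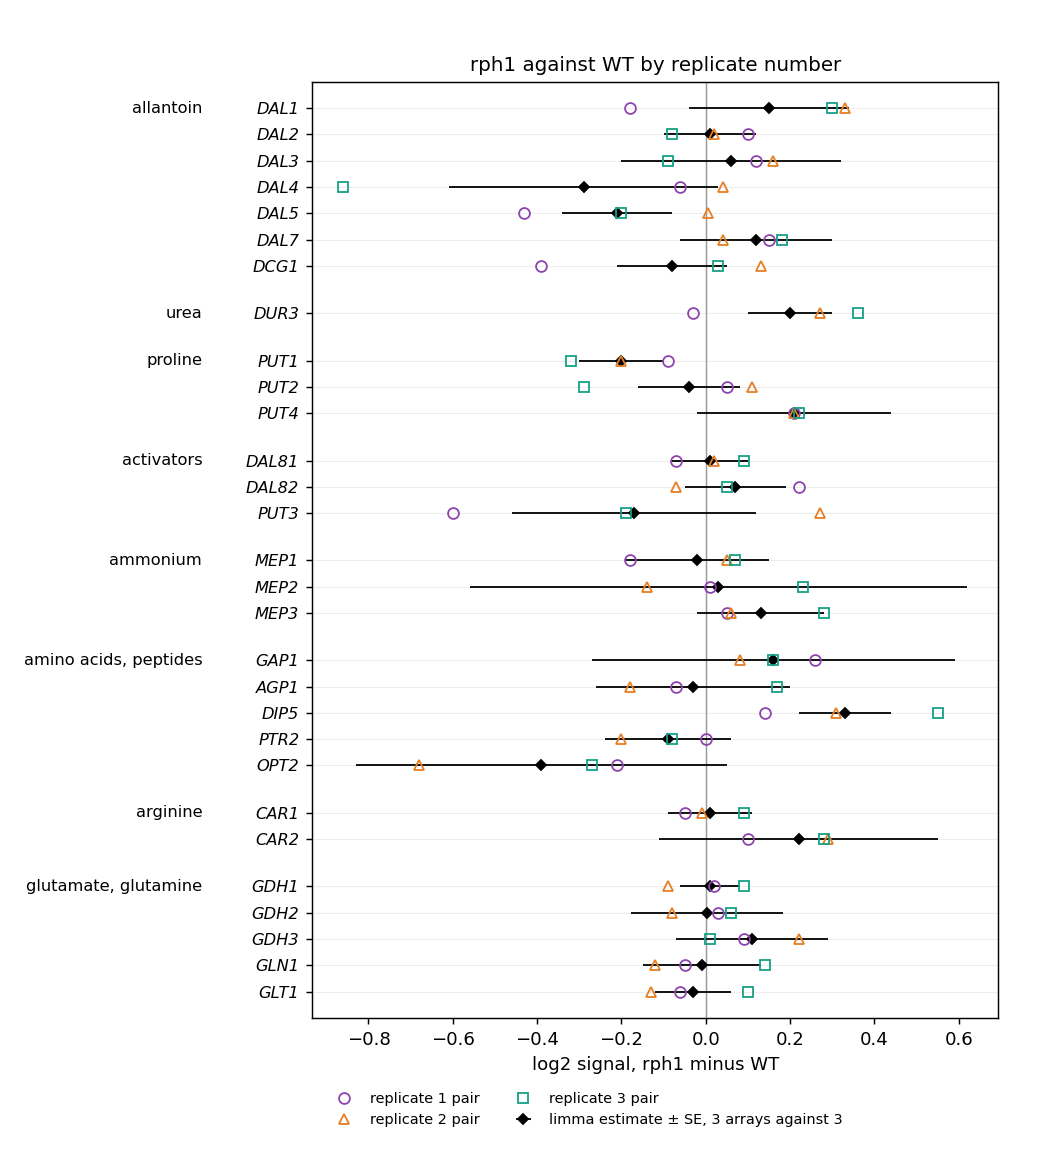
Log2 signal difference, rph1 minus WT, of the 29 measured members, grouped by pathway. Open symbols are the 3 same-numbered pairs, and black diamonds with bars are the limma estimate ± SE over 3 arrays against 3; estimates run from -0.39 for OPT2 to 0.33 for DIP5, and the bars of MEP2, GAP1 and OPT2 are wide.

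DIP5, the permease for glutamate and aspartate, was the member with the smallest p. It read 1129, 1085 and 1130.3 on rph1 arrays 1, 2 and 3, against 1026, 873 and 774 on the same-numbered WT arrays. All rph1 arrays lay above all WT arrays, which held for no other member in either direction; 7.55% of all tested genes were apart in that direction and 3.04% in the other. Its log2 difference was 0.33 (SE 0.11), with a 95% interval of 0.06 to 0.61, and it did not pass (limma adjusted p = 0.693). The pairs gave 0.14, 0.31 and 0.55. Within replicates 2 and 3 the difference was 0.43 (SE 0.08, limma adjusted p = 0.226). Without rph1 replicate 2, rph1 replicate 3, WT replicate 2 or WT replicate 3, or after median centring, no member had an unadjusted p under 0.05 (0 of 29).

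Taking the batch out of the error narrowed the estimates without adding a call. The median SE over the members was 0.15 as fitted and 0.07 both with the replicate number as a block and with the batch as a term. With the block, 0 members were called by limma, where 0.111% of all tested genes were. An unadjusted p under 0.05 was found for 6 members (20.7%, against 13.0% of all tested genes), with adjusted p of 0.222 to 0.382. DIP5, PUT4, GAP1 and CAR2 were the higher ones (13.8%, against 9.40% of all tested genes), and PUT1 and OPT2 the lower ones (6.90%, against 3.57%). The batch term called 0 members (0.629% of all tested genes) and gave the same 6 at an unadjusted p under 0.05 (20.7%, against 14.6%), with adjusted p of 0.160 to 0.281. Within replicates 2 and 3 alone the count was also 6 (20.7%, against 10.6%), with DAL1 and DUR3 in place of PUT4 and GAP1. In the fit with the batch term, the 95% interval lay within a log2 difference of 1 in either direction for all 29 members. For 25 of them it lay within 0.5. The lowest bound was -0.76, for DAL4, and the highest 0.54, for DIP5. In the fit with genotype alone the bounds reached from -1.44 for OPT2 to 1.45 for MEP2, so not all intervals lay within 1.

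**Figure D2:**
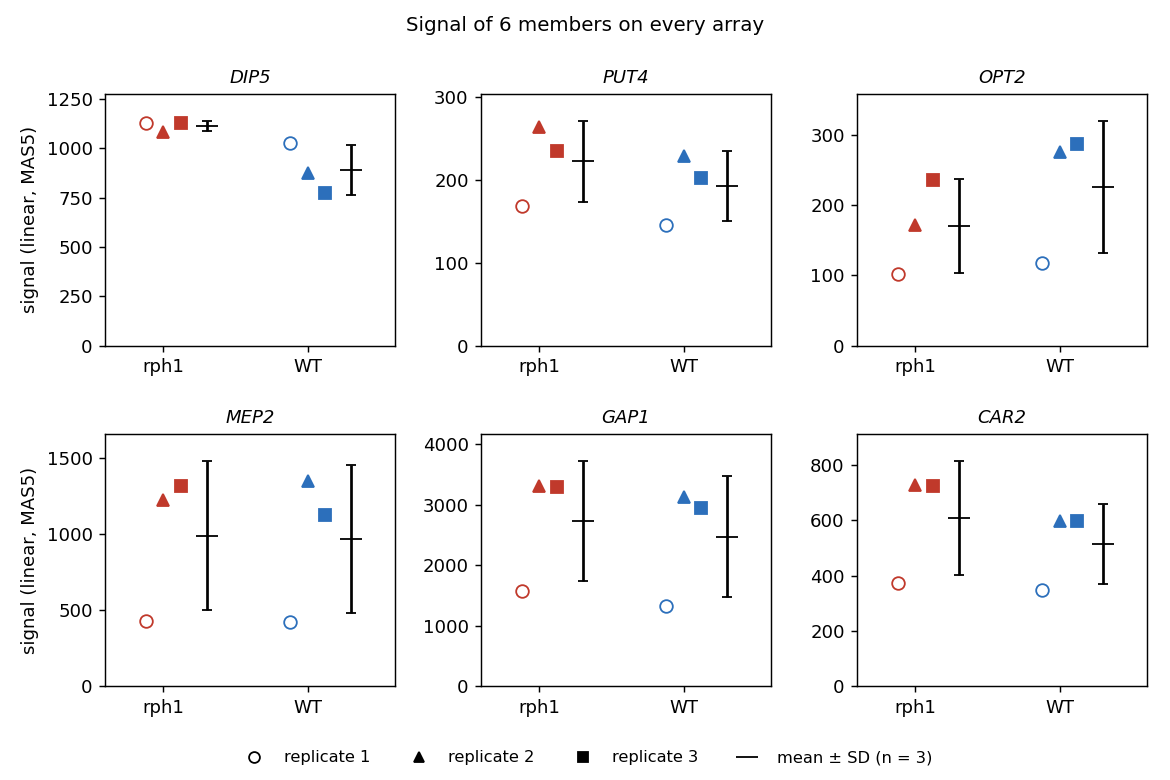
Signal on a linear scale from 0 for DIP5, PUT4, OPT2, MEP2, GAP1 and CAR2. Each symbol is 1 array, with replicate 1 open, and bars are mean ± SD (n = 3); DIP5 is apart between genotypes (1085 and above in rph1, 1026 and below in WT), while MEP2, GAP1, CAR2, OPT2 and PUT4 are lowest in replicate 1 of both genotypes.

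In the allantoin pathway, whose enzymes turn allantoin into urea, ammonium and glyoxylate, 4 of 7 members were higher in rph1 and 3 lower, with a median of 0.01. The allantoinase gene DAL1 differed by 0.15 (SE 0.19), with -0.18 in pair 1 against 0.33 and 0.30 in pairs 2 and 3. The allantoicase gene DAL2 differed by 0.01 (SE 0.11) and the ureidoglycolate lyase gene DAL3 by 0.06 (SE 0.26). DAL4, the allantoin permease gene, read 87.0, 134 and 115 on rph1 arrays 1, 2 and 3, against 90.7, 130.1 and 209 on the WT arrays. Its difference of -0.29 (SE 0.32) came mostly from pair 3, at -0.86, and the groups overlapped. The allantoate permease gene DAL5 differed by -0.21 (SE 0.13) and DCG1, a gene of unknown function, by -0.08 (SE 0.13). DAL7, a malate synthase gene whose product uses the glyoxylate from this pathway, differed by 0.12 (SE 0.18). Its paralog MLS1, the malate synthase gene of growth on carbon sources such as acetate, read 46.7, 32.8 and 106 in rph1, against 32.2, 50.1 and 31.1 in WT, and did not pass (0.56, SE 0.44, limma adjusted p = 1.00).

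Except for DAL5, these genes lie next to each other on chromosome IX, in the order DAL1, DAL4, DAL2, DCG1, DAL7, DAL3, by the gene order of assembly R64. The 6 neighbours did not share a direction in rph1, with 4 higher, 2 lower and a median of 0.04. In pair 2 all 6 were higher, and in pairs 1 and 3 the number was 3 of 6.

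For urea, the permease gene DUR3 read 62.8, 75.0 and 70.7 on rph1 arrays, against 64.0, 62.3 and 55.2 on WT arrays, a difference of 0.20 (SE 0.10, limma adjusted p = 1.00). In the proline pathway, PUT1, encoding proline oxidase, read 999, 824 and 844 in rph1, against 1065, 949 and 1051 in WT. It was lower in every pair, at -0.09, -0.20 and -0.32, yet the groups overlapped and the difference of -0.20 (SE 0.10) did not pass (limma adjusted p = 1.00). PUT2, for the next enzyme of proline breakdown, differed by -0.04 (SE 0.12). PUT4, the proline permease gene, read 168, 263 and 235 in rph1, against 145, 228 and 202 in WT. The 3 pairs were close to each other, at 0.21, 0.21 and 0.22. That closeness depends on the array numbers, and no label says that same-numbered cultures belong together. The estimate was 0.21 (SE 0.23, or 0.05 with the block, where the limma adjusted p was 0.222). The array values of DAL4, DUR3 and PUT1 are given because their pairs or p stood out, a choice made after the values were seen.

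None of the 3 activator genes passed. DAL81, whose product acts on the allantoin, urea and some amino acid permease genes, differed by 0.01 (SE 0.09) and DAL82, the allantoin pathway activator, by 0.07 (SE 0.12). PUT3, the activator of the proline enzymes, differed by -0.17 (SE 0.29), and its pairs disagreed in sign, at -0.60, 0.27 and -0.19.

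Among the ammonium permeases, MEP2, the high-affinity carrier that also signals for filamentous growth, read 428, 1228 and 1319.6 in rph1, against 427, 1355 and 1128 in WT. The genotypes overlapped and differed by 0.03 (SE 0.59). MEP1 read 809.8, 1174 and 1137 in rph1, against 918, 1138 and 1085 in WT, and differed by -0.02 (SE 0.17). MEP3, the low-affinity carrier, read 806, 1043 and 1082 in rph1, against 779.6, 999.8 and 888 in WT, and differed by 0.13 (SE 0.15). The genotypes overlapped for MEP1 and MEP3 too.

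Of the amino acid and peptide transporters, 2 of 5 were higher in rph1 and 3 lower. GAP1, the general amino acid permease gene, read 1583, 3306 and 3298 in rph1, against 1325, 3138 and 2954 in WT, a difference of 0.16 (SE 0.43, or 0.06 with the block). AGP1, a broad-range amino acid permease gene induced by external amino acids, read 1397, 2046 and 2183 in rph1, against 1469, 2315 and 1946 in WT (-0.03, SE 0.23). PTR2, the di- and tripeptide transporter gene, read 2964, 2242 and 2225 in rph1, against 2965, 2567 and 2352 in WT (-0.09, SE 0.15). OPT2, of the oligopeptide transporter family, read 102, 172 and 236 in rph1, against 118, 275 and 286 in WT. It had the lowest genotype difference of the list, -0.39 (SE 0.44, or 0.11 with the block, where the limma adjusted p was 0.236), and the groups overlapped.

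CAR1, the arginase gene, differed by 0.01 (SE 0.10). CAR2, for the ornithine transaminase that acts after arginase, read 372, 727 and 725 in rph1, against 347, 597 and 596 in WT. Each rph1 array was above its same-numbered WT array, but the groups overlapped, and the difference was 0.22 (SE 0.33, or 0.07 with the block, where the limma adjusted p was 0.270). The central nitrogen genes had small estimated differences. GDH1, the main glutamate-forming dehydrogenase gene of fermenting cells, differed by 0.01 (SE 0.07), and its paralog GDH3 by 0.11 (SE 0.18). GDH3 read 199.5, 293 and 249 in rph1, against 187, 252 and 247 in WT. GDH2, whose enzyme breaks glutamate down, read 582, 770.2 and 785 in rph1, against 570.0, 815 and 752 in WT, and differed by 0.003 (SE 0.18). The genotypes overlapped for both. The glutamine synthetase gene GLN1 differed by -0.01 (SE 0.14) and the glutamate synthase gene GLT1 by -0.03 (SE 0.09). For these 5 genes the 95% intervals with the batch term lay between -0.18 and 0.28. With genotype alone the bounds reached from -0.43 for GDH2 to 0.54 for GDH3.

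The larger differences among these genes lay between replicate 1 and replicates 2 and 3. This was tested in a limma fit with genotype and batch, as the log2 signal of replicate 1 (2 arrays, 1 of each genotype) minus that of replicates 2 and 3 (4 arrays). Of the 29 members, 18 were called (62.1%), where 36.9% of all tested genes were. Of the calls, 14 (48.3% of the members) were lower in replicate 1 (18.5% of all tested genes) and 4 (13.8%) were higher (18.4%). Both replicate 1 arrays lay below all 4 others for 15 members (51.7%, against 25.1% of all tested genes) and above them for 6 (20.7%, against 28.1%). The batch difference exceeded the genotype difference in size for 25 of the 29, with a median size of 0.34 against 0.09. The same was general on these arrays: over all tested genes the batch difference was the larger for 74.8%, against 86.2% of the members, and the median sizes were 0.18 and 0.07. Leaving out the rph1 array of replicate 1 left 6 of the 29 called (9.68% of all tested genes), and leaving out the WT array of replicate 1 left 11 (13.0%). MEP2, GAP1, CAR2, DAL3, OPT2 and GDH2 were called under all 9 alternatives tried, and the sign held for all 18. CAR1 was called under 3 of the 9, DAL82 under 4, and DAL4, GLN1, MEP3 and PUT3 under 5. The alternatives share most of their arrays, and the share of all tested genes called under all 9 was not counted. Whether the batch split reflects the cultures, the RNA, the labelling or the hybridisation cannot be told apart. The part of the dap control difference in it was not tested.

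**Figure D3:**
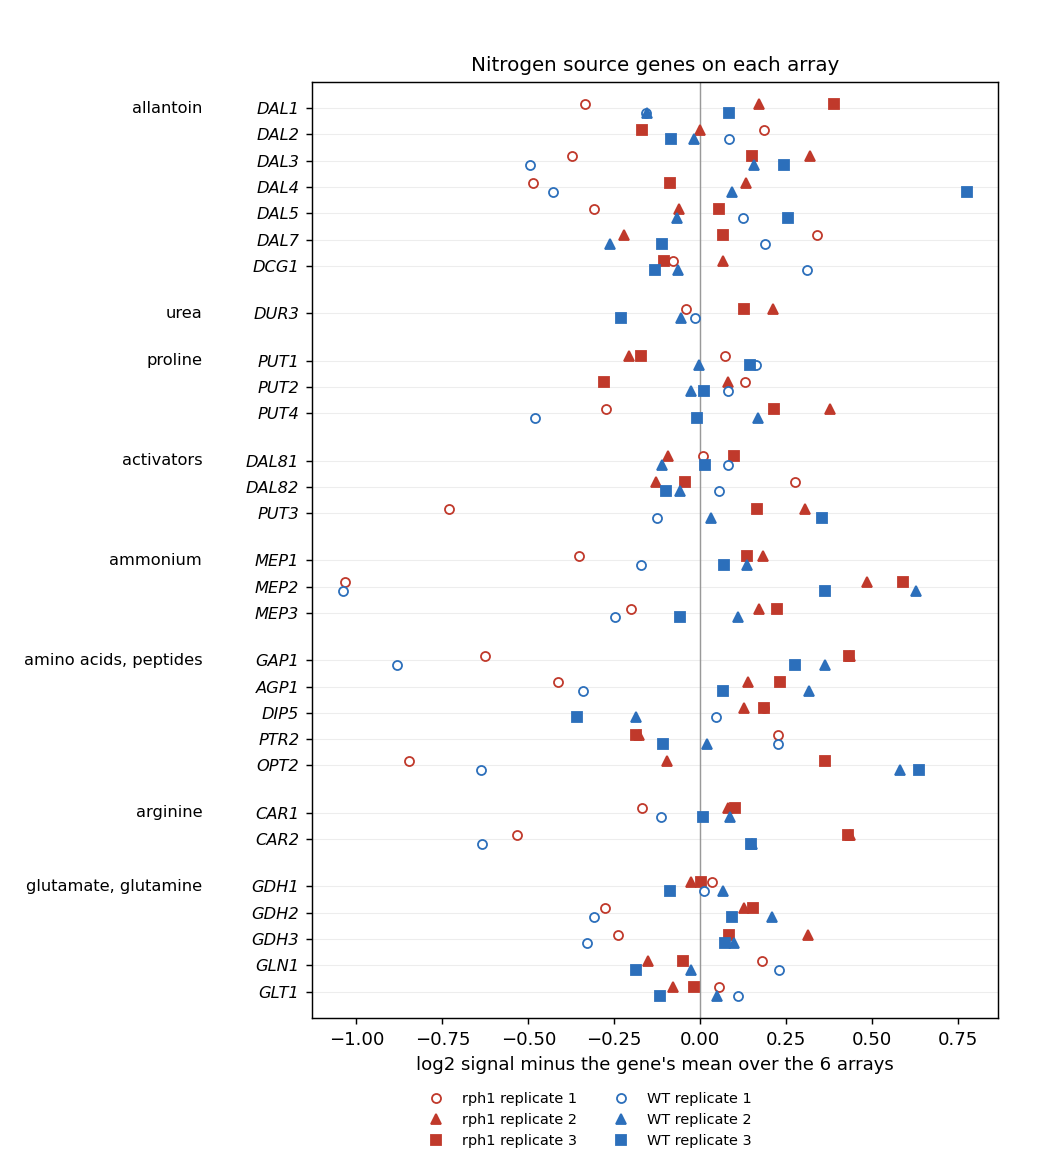
Log2 signal of the 29 measured members on each of the 6 arrays, minus the gene's own mean over the arrays. Red is rph1 and blue is WT, and open circles are replicate 1; the open circles of both genotypes lie together at the low end for MEP2, GAP1, OPT2, CAR2, DAL3 and PUT4 and at the high end for DAL7, PTR2 and GLN1.

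The uptake genes differed by batch in both directions. MEP2 averaged 427 in replicate 1 and 1258 in replicates 2 and 3 (n = 2 and 4), which is -1.55 on the log2 scale (SE 0.09, limma adjusted p = 0.000718) or 2.94-fold lower. MEP1 (-0.39, SE 0.07, limma adjusted p = 0.0110) and MEP3 (-0.34, SE 0.07, limma adjusted p = 0.0168) were lower as well. All 3 ammonium permease genes were thus called, where 36.9% of all tested genes were. GAP1 averaged 1454 in replicate 1 and 3174 in replicates 2 and 3, a difference of -1.13 (SE 0.06, limma adjusted p = 0.000680) or 2.19-fold lower. OPT2 differed by -1.11 (SE 0.14, limma adjusted p = 0.00432). MEP2, GAP1 and OPT2 were the members more than 1 log2 unit lower (10.3%), a rule met by 1.26% of all tested genes. AGP1 and the proline permease gene PUT4 were lower, both at -0.56 (SE 0.08), with limma adjusted p = 0.00685 and 0.00572. The peptide transporter gene PTR2 went the other way, at 0.34 (SE 0.07, limma adjusted p = 0.0124), and DIP5, at 0.17 (SE 0.09), was not called (limma adjusted p = 0.174).

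Among the enzymes, CAR2 averaged 359 in replicate 1 and 661 in replicates 2 and 3, a difference of -0.87 (SE 0.06, limma adjusted p = 0.00112). CAR1 was called too, with a smaller difference of -0.21 (SE 0.06, limma adjusted p = 0.034). The glutamate-degrading GDH2 differed by -0.44 (SE 0.06, limma adjusted p = 0.00529) and the GDH1 paralog GDH3 by -0.43 (SE 0.08, limma adjusted p = 0.0105), while GDH1 differed by 0.03 (SE 0.06) and was not called. GLN1, which makes glutamine, was higher in replicate 1 by 0.31 (SE 0.07, limma adjusted p = 0.02). PUT1 and PUT2, at 0.18 (SE 0.07) and 0.16 (SE 0.11), were not called. Of the activator genes 2 of 3 were called, in opposite directions, where 36.9% of all tested genes were called. PUT3 was at -0.64 (SE 0.17, limma adjusted p = 0.0297) and DAL82 at 0.25 (SE 0.07, limma adjusted p = 0.0412).

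The neighbouring genes of the chromosome IX cluster did not move as a block between batches. DAL3 read 308, 499 and 443 on rph1 arrays 1, 2 and 3, and 283, 445 and 473 on the WT arrays, and was lower in replicate 1, at -0.65 (SE 0.07, limma adjusted p = 0.00323). DAL4 was lower too, at -0.69 (SE 0.20, limma adjusted p = 0.0411), whereas DAL7, next to DAL3, was higher by 0.40 (SE 0.10, limma adjusted p = 0.0241). DAL1, DAL2 and DCG1 were not called, at -0.37 (SE 0.14), 0.20 (SE 0.07) and 0.17 (SE 0.12). Outside the cluster DAL5 differed by -0.14 (SE 0.12) and DUR3 by -0.04 (SE 0.10), and neither was called.

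The batch difference could be read in each genotype from separate arrays. It had the same sign in rph1 and in WT for 26 of 29 members. The share of all tested genes with the same sign was not counted. The batch calls came from these same arrays, so the shared sign is no separate check of the called members. For MEP2 it was -1.57 in rph1 and -1.54 in WT, for GAP1 -1.06 and -1.20, for OPT2 -0.98 and -1.25, for CAR2 -0.97 and -0.78, and for PUT4 -0.57 and -0.56. Across the 29 members the values in rph1 and WT correlated at r = 0.894, and across all tested genes at 0.768; the points share their arrays, and this is a description only. In a limma fit with an interaction of genotype and batch, 0 of 29 members passed, as did 0% of all tested genes, and 2 members had an unadjusted p under 0.05 (6.90%, against 6.63%).

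**Figure D4:**
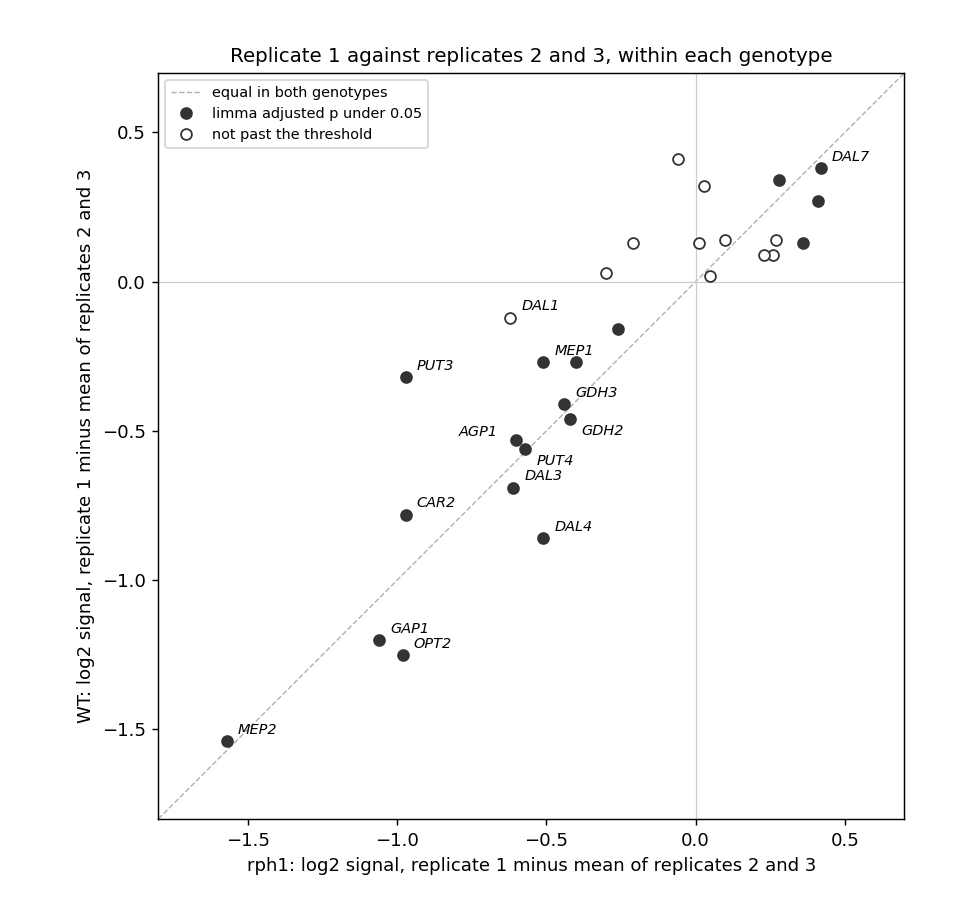
Log2 signal of replicate 1 minus the mean of replicates 2 and 3, in rph1 on the horizontal axis and in WT on the vertical axis, for the 29 measured members. Filled points passed the batch test at a limma adjusted p under 0.05 (18 members), and the dashed line marks equal values; MEP2 lies at -1.57 and -1.54, at the lower left end, and DAL7 at 0.42 and 0.38.

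Other genes of nitrogen regulation and use, in 4 lists set by function, gave 0 calls between rph1 and WT among 52 tested, in the fit without the block, with the block and with the batch term. Of all tested genes these fits called 0.037%, 0.111% and 0.629%. Of 12 nitrogen regulators 8 were higher in rph1 and the median was 0.04. ARG82, an inositol polyphosphate kinase gene named for its part in arginine control, was the 1 gene of these lists with an unadjusted p under 0.05 in the fit without the block, at 203, 246 and 235 in rph1 against 171, 178 and 186 in WT (0.35, SE 0.10, limma adjusted p = 0.467). The arginine regulator gene ARG80 differed by -0.21 (SE 0.14) and NPR3 by 0.12 (SE 0.09). Genes of the external amino acid sensor had a median of -0.0038 over 8, with STP2, a transcription factor gene of that pathway, at -0.16 (SE 0.12). Of 16 other amino acid permease genes 12 were lower in rph1, with a median of -0.07, where 2677 of all 5402 tested genes were lower. In pairs 1, 2 and 3 their medians were -0.15, 0.01 and -0.01, with 4, 9 and 7 of 16 higher. The lower ones included the branched-chain permease gene BAP2 at -0.21 (SE 0.10) and ALP1 at -0.20 (SE 0.10), against AGP2 at 0.39 (SE 0.20). Of 16 other nitrogen-source genes 11 were lower, with a median of -0.06. In pairs 1, 2 and 3 their medians were -0.16, -0.14 and 0.04, with 3, 4 and 9 of 16 higher. In the fit without the block the smallest p there were those of ATO2 at 0.23 (SE 0.16), CHA1 at -0.46 (SE 0.42) and CPS1 at 0.12 (SE 0.11).

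With the replicate number as a block, 13 of these 52 genes had an unadjusted p under 0.05 (25.0%, against 13.0% of all tested genes), and none was called (lowest limma adjusted p = 0.107, or 0.0547 with the batch term, both for AGP2). AGP2, a plasma membrane permease gene, read 250.2, 181 and 171 on rph1 arrays 1, 2 and 3, against 192, 138 and 130.2 on the WT arrays. Its pairs were nearly equal, at 0.38, 0.39 and 0.39, and the SE was 0.05 with the block, against 0.20 without it. That closeness too depends on pairing the arrays by their numbers. Of the other nitrogen-source genes 7 of 16 met the rule with the block, and the order by p changed: the smallest were then ARO9 (pairs -0.27, -0.40 and -0.34, SE 0.06, limma adjusted p = 0.124), GCV2 (pairs -0.65, -0.30 and -0.32, SE 0.09, limma adjusted p = 0.153) and ARO10 (pairs -0.22, -0.22 and -0.30, SE 0.06, limma adjusted p = 0.183). ARO9 and ARO10 act in aromatic amino acid breakdown and GCV2 in glycine cleavage, and these 3 were lower in rph1 in every pair. The blocked values of these lists were picked out after they had been seen.

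Between batches, 5 of the 12 regulators were called (41.7%, near the 36.9% of all tested genes), all lower in replicate 1. DAL80, the GATA repressor gene of this system, read 76.9, 192 and 195 in rph1 and 76.0, 174 and 178 in WT on arrays 1, 2 and 3, a batch difference of -1.27 (SE 0.06, limma adjusted p = 0.000468). ARG81 (-0.91, SE 0.10) and the permease-regulating kinase gene NPR1 (-0.34, SE 0.05) were lower too. Of the sensor genes 3 of 8 were called (37.5%, again near that share), all lower, with GRR1 at -0.33 (SE 0.06). The other permeases gave 6 lower and 2 higher of 16 (50.0% called), with SAM3 at -0.52 (SE 0.06), MMP1 at -0.57 (SE 0.08) and AGP2 at 0.51 (SE 0.06). Among the other nitrogen-source genes 6 were called lower and 4 higher of 16 (62.5%). ARO10 and ARO9 were lower in replicate 1, at -1.45 (SE 0.08) and -1.02 (SE 0.07), and ATO3, of the ammonium export family, was higher by 0.84 (SE 0.06).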

How the data were processed

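Labelled cRNA from 10 µg of total RNA per culture was hybridised to Affymetrix yeast arrays, 3 rph1 and 3 WT. Each deposited value is a probe set's signal intensity, which the authors made with MAS5, per the submitters' processing notes. Its version and scaling target are not stated there. The 2% trimmed mean was 500.2 on every array, so signals were used as deposited. Of 10928 probe sets, 5498 were matched by gene identifier to the RefSeq table (assembly R64, used for names and gene order only), and 1746 listed for genes outside it, from the fission yeast that the array also covers, set the background. Genes with a mean log2 signal above the 95th percentile of these, 3.06, were tested. The highest-mean probe set was kept per gene. No member had several, and 0 of the members' probe sets carry the manufacturer's mark for cross-hybridisation.

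Tests used limma 3.58.1 in R 4.3.3 (2-sided, Benjamini-Hochberg over 5402 genes, threshold 0.05). The code was checked on simulated data with planted changes larger than the members' genotype differences. That check does not measure the power of the tests on these arrays. Between rph1 and WT, with 3 arrays against 3, single values could not go below p = 0.1 in an exact permutation test. Figures used matplotlib 3.10.9 in Python 3.11.15. The number of arrays limits the precision, and nothing says that replicates came from separate clones.

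Deviations from the group means correlated between same-numbered arrays at 0.768, 0.454 and 0.415. WT 3 correlated more with rph1 2 (0.535) and WT 2 more with rph1 3 (0.471). These values set replicate 1 apart but do not show that arrays 2 and 3 are paired by number. The p, SE and intervals given without further mention come from the fit with genotype alone, which ignores replicate number and batch. Blocked values are named as such. Members and lists were chosen with earlier results of these data known. Array values are given for members with an unadjusted p under 0.05 or groups apart and for the 12 with the smallest p between batches; up to 3 genes are named per other list and comparison, those by blocked p after the values were seen. Promoter motifs and protein identity, also planned, were not analysed here.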

Additional observations from a re-analysis of the deposited data

How the results depend on the processing

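The count of members called between rph1 and WT was 0 under all 16 alternatives, and the log2 difference of DIP5 stayed between 0.24 and 0.44, uncalled. The number of members with an unadjusted p under 0.05, 1 as fitted, was 6 with the replicate block, 6 with the batch as a term, 6 in replicates 2 and 3 only and 0 after median centring; leaving out single arrays gave 0 to 3. The block changed no call among the members. Their median difference ranged from -0.02 to 0.10 on leaving out each array in turn, the highest without rph1 replicate 1. The cause of these shifts was not tested. Members called between batches numbered 6 to 18 when single arrays were left out, against 18; with either replicate 1 array left out, 1 array stands for its batch and is assumed to vary like the others. The interaction gave 0 calls in all 4 fits, 3 of them added after seeing the data.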

Other observations

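There were 2 members that had an unadjusted p under 0.05 for the interaction of genotype and batch and did not pass (limma adjusted p from 0.709). That is 6.90% of the members, near the 6.63% of all tested genes. DCG1 read 429 in rph1 and 561 in WT in replicate 1, against 474 and 421 in rph1 and 433 and 413 in WT in replicates 2 and 3. PUT3 read 137 in rph1 and 208 in WT in replicate 1, against 281 and 255 in rph1 and 232 and 290.3 in WT in the others. The rph1 value of PUT3 in replicate 1 was its lowest. For both genes replicate 1 holds only 1 array per genotype.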
